A study of Mus musculus with 8 samples.

Results

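Kinesins were examined in mammary tumours of mice that express normal or polyglutamine-expanded huntingtin. The members were the genes whose symbol begins with Kif or Kifc followed by a digit. A single-symbol probe set, the measuring unit of the array, named 30 of them on 31 probe sets, out of 14860 genes with such a probe set, and where a gene had more than 1 the one with the highest mean signal was taken. By known role, 10 were mitotic kinesins, 12 were transport kinesins and 8 were ciliary, microtubule-regulating or other kinesins. The groups were MMTV-PyVT/HdhQ111/Q111 (4 tumours), homozygous for a knock-in huntingtin with 111 glutamines, and MMTV-PyVT/HdhQ7/Q7 (4 tumours), in which huntingtin has 7. All 8 carried the polyoma middle T oncogene (PyVT) under the mouse mammary tumour virus promoter, which is active mainly in mammary epithelium, on a mixed FVB/CD1 strain. Tumours were untreated, were taken at a fixed interval after detection and were hybridized singly to Affymetrix Mouse Exon 1.0 ST arrays. Because tumours arose earlier in HdhQ111/Q111 mice, age and genotype cannot be told apart here. Samples are described as biological replicates, but it is not stated that every tumour had its own donor animal, and p-values reflect only how these tumours spread.

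Kinesins are motor proteins that use ATP to step along microtubules, and most of them move towards the plus end. Mitotic kinesins build the spindle, move chromosomes and complete cytokinesis, and their genes are transcribed mainly in the G2 and M phases of dividing cells. Transport kinesins carry vesicles, organelles and ciliary components in dividing and resting cells alike. Huntingtin takes part in that transport: it associates with kinesin-1, with dynein and dynactin, and with Hap1, and the expansion of its glutamine tract alters the movement of vesicles in neurons.

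The promoters of mitotic kinesins are shown first because most hold a short element of late cell cycle genes. The element is the core of the cell cycle genes homology region (CHR), TTTGAA, or TTCAAA when it lies on the opposite strand, which binds the DREAM and MuvB-B-Myb complexes. Each stretch is RefSeq sequence of build GRCm38.p6, running 5′ to 3′ along the gene's strand with 70 bases before the annotated start site and 30 from it, and capitals mark CHR cores.
Kif11 promoter, chr19:37376312-37376411, plus strand: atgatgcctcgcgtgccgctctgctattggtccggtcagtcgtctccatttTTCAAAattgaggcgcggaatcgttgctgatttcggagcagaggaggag
Kif15 promoter, chr9:122951011-122951110, plus strand: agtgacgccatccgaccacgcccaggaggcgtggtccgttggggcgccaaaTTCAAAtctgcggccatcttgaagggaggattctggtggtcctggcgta
Kif22 promoter, chr7:127042391-127042490, minus strand: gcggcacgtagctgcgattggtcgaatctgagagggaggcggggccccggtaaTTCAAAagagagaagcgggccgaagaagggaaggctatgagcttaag
Kif23 promoter, chr9:61946770-61946869, minus strand: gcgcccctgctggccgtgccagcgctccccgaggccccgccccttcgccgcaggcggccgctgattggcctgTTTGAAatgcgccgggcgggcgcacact
Kif4 promoter, chrX:100625995-100626094, plus strand: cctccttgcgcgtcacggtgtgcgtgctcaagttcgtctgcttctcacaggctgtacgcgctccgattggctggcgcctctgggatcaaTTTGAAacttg
Kif20b promoter, chr19:34922288-34922387, plus strand: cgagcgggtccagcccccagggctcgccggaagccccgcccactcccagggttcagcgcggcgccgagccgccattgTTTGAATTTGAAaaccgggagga

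In the stretches shown, the core began 19 bases before the start site in both Kif11 and Kif15 and 17 bases before it in Kif22. In Kif23 and Kif4 it began at bases 3 and 20 of the transcript, and Kif20b had a pair of adjoining cores at bases 8 and 14. Outside the stretches, a further core began 234 bases before the start site in Kif15 and 215 bases before it in Kif22. The promoters of 3 transport kinesins are given for contrast, and none has the core in the stretch shown. The printed genes are a selection and do not stand for their roles. The transport kinesin Kif1a, not printed, has a core that begins 44 bases before a start site. Of the mitotic kinesins not printed, Kif18a has no core in its window and that of Kif2c begins 103 bases before the start site.
Kif1c promoter, chr11:70700478-70700577, plus strand: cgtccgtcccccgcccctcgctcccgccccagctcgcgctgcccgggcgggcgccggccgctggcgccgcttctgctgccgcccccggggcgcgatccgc
Kif3c promoter, chr12:3365062-3365161, plus strand: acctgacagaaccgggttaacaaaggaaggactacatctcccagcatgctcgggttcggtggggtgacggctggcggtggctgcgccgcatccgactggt
Kif5c promoter, chr2:49619216-49619315, plus strand: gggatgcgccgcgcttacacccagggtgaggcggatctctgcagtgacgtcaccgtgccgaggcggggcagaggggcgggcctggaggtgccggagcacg

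A 300-base promoter window was given for 9 of the 10 mitotic, 8 of the 12 transport and all 8 other kinesins. Within it, on either strand, TTTGAA occurred in 8 of 9 mitotic kinesins (88.9%), all except Kif18a. It occurred in 1 of 8 transport kinesins (12.5%, Kif1a), in 2 of 8 other kinesins (25%, Kif26b and Kif27) and in 20.2% of all 27025 genes with a promoter. Within 50 bases of the start site, a width chosen after the positions had been seen, the core was found in 7 of 9 mitotic kinesins (77.8%), against 1 of 8 transport and 1 of 8 other kinesins (12.5% each) and 5.72% of all genes. Spindle and cytokinesis genes that work with these motors had it in the 300-base window in 19 of the 29 with a promoter (65.5%). Within 50 bases of the start they had it in 18 of 29 (62.1%), so a core near the start is not particular to mitotic kinesins. Proliferation markers had it in 3 of 8 (37.5%), with 1 of 8 (12.5%) within 50 bases of the start. The CCAAT box, spelled CCAAT on either strand and bound by NF-Y, was less uneven among kinesins in the 300-base window. It occurred in 5 of 9 mitotic (55.6%), 3 of 8 transport (37.5%) and 4 of 8 other kinesins (50%), and in 41.1% of all genes. Spindle and cytokinesis genes had it there in 21 of 29 (72.4%) and proliferation markers in 8 of 8. Within 50 bases of the start it was uneven, in 4 of 9 mitotic (44.4%), 1 of 8 transport (12.5%), 0 of 8 other kinesins and 15.6% of all genes. Spindle and cytokinesis genes had it there in 17 of 29 (58.6%) and proliferation markers in 4 of 8 (50%), so it is not particular to mitotic kinesins either. A match of letters describes the sequence and does not show that a factor binds there.

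**Figure D1:**
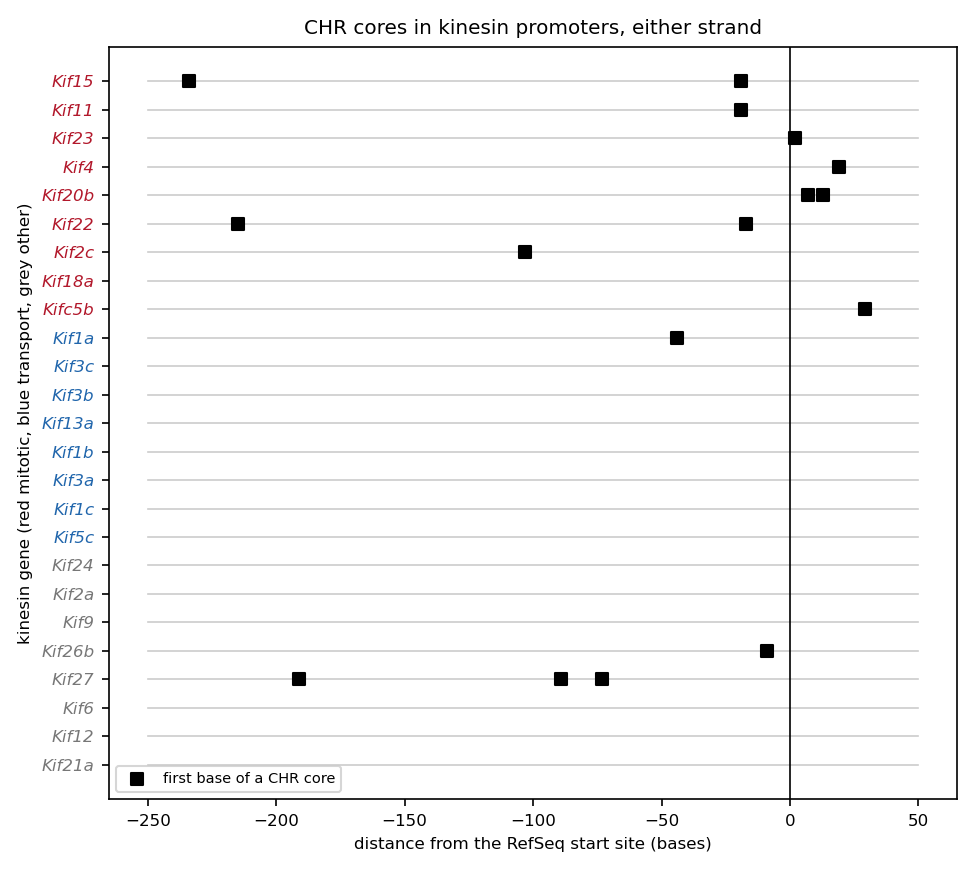
Positions of CHR cores in the promoters of 25 kinesin genes. The horizontal axis is the distance in bases from the RefSeq start site, each grey line is a searched window, and each square is the first base of a core on either strand. Squares cluster near the start site in the upper, mitotic kinesins, whereas among transport kinesins a single square appears, in Kif1a.

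The arrays were similar in overall signal. The deposited values are log2 signals, and array medians lay between 7.58 and 7.74, with Pearson correlations across probe sets of 0.984 to 0.990 between arrays. The mean array median was 0.07 higher in HdhQ111/Q111 tumours, while the median log2 fold change over all 23332 probe sets was 0.02. Htt itself gave signals of 8.92, 8.79, 8.89 and 8.65 in HdhQ111/Q111 tumours, against 9.43, 9.60, 9.59 and 9.45 in HdhQ7/Q7 tumours, with no overlap (log2 fold change -0.70, limma adjusted p = 0.0700). Epithelial markers, 7 of 8 measured, had a mean signal of 11.16 to 11.39 in HdhQ111/Q111 tumours and 11.15 to 11.40 in HdhQ7/Q7 tumours.

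No kinesin passed the test across all probe sets. Adjusted limma p-values of the 30 genes ran from 0.619 to 0.978, and 0.0129% of all probe sets had an adjusted p under 0.05. The study's own thresholds (1.5-fold or more, unadjusted p at or below 0.05) were met by 0 kinesins and by 1.36% of all probe sets. At an unadjusted p under 0.05, 5 kinesins were higher in HdhQ111/Q111 tumours (5.20% of all probe sets) and 0 were lower (2.68%). The split over all probe sets depended on the scaling, at 3.65% higher and 4.39% lower under quantile normalization and 2.71% higher and 6.38% lower under centring. All 5 were mitotic: Kif15, Kif11, Kif23, Kif20b and Kif20a. The genotypes did not overlap for 2 kinesins, Kif11 and Kif20b, both higher in HdhQ111/Q111 tumours, against 2.70% of all probe sets in that direction and 4.43% in either, so 2 of 30 genes is a small count to set against the background.

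**Figure D2:**
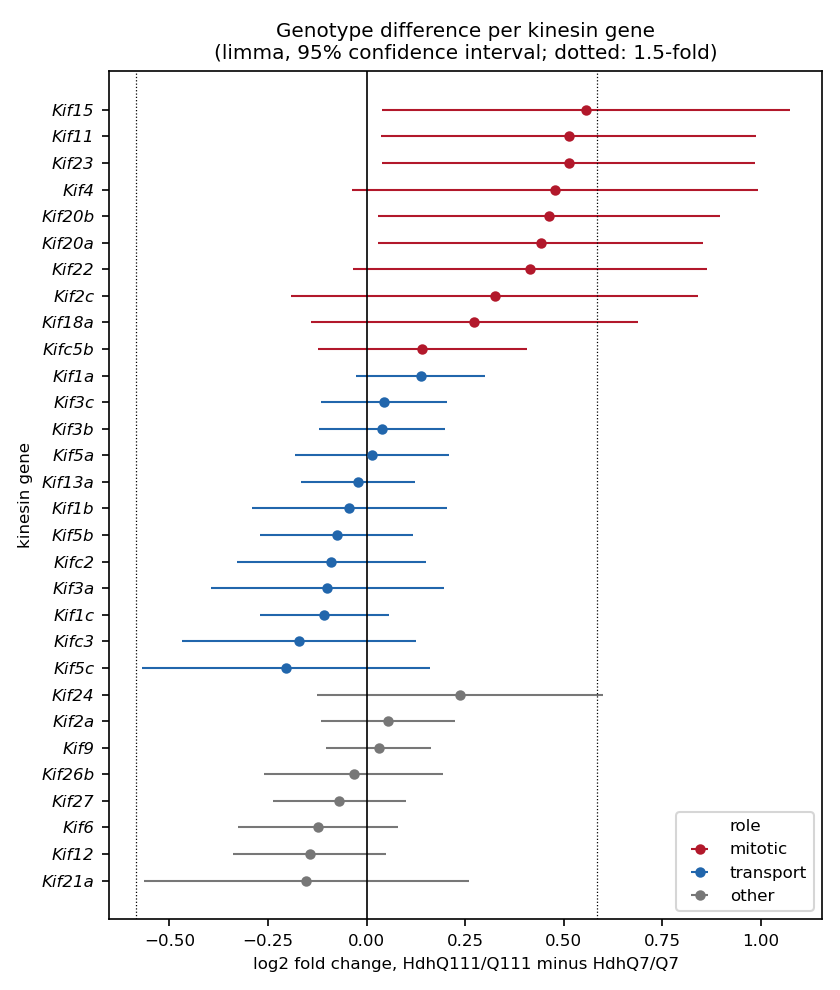
Genotype difference of each kinesin gene. Points are log2 fold changes, HdhQ111/Q111 minus HdhQ7/Q7, from limma, bars are 95% confidence intervals, dotted lines mark a 1.5-fold change and colours mark the role. All 10 mitotic kinesins lie above 0, between 0.14 for Kifc5b and 0.56 for Kif15, while the transport kinesins lie between -0.20 and 0.14.

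The roles differed in direction. All 10 mitotic kinesins had a higher mean in HdhQ111/Q111 tumours, with a median log2 fold change of 0.45, whereas 56.4% of all probe sets had a higher mean there. Of the 12 transport kinesins 4 had a higher and 8 a lower mean, with a median of -0.06, and 0 had an unadjusted p under 0.05 in either direction. Of the 8 other kinesins 3 were higher and 5 lower, with a median of -0.05. The medians of mitotic and transport kinesins differed by 0.51. These medians are descriptions, since members of a role share tumours and are not replicates.

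Kif11 and Kif15 push spindle poles apart. Kif11 (kinesin-5, probe set 6869503) gave log2 signals of 9.88, 9.88, 10.65 and 10.47 in HdhQ111/Q111 tumours 1 to 4, against 9.81, 9.85, 9.85 and 9.32 in HdhQ7/Q7 tumours 1 to 4. Tumours 3 and 4 of HdhQ111/Q111 stood above the rest and HdhQ7/Q7 tumour 4 stood below, while the other 5 tumours lay together. The log2 fold change was 0.51 (SE 0.21, 1.43-fold; limma unadjusted p = 0.0379, adjusted p = 0.621), and an exact permutation test over the 70 labellings gave p = 0.0286, two-sided, the smallest it can give. Kif15 (kinesin-12, probe set 6993098) gave 7.74, 7.84, 8.60 and 8.39 in HdhQ111/Q111 tumours, against 7.82, 7.66, 7.75 and 7.12 in HdhQ7/Q7 tumours. Its order was alike, and the groups overlapped because HdhQ7/Q7 tumours 1 and 3 were above HdhQ111/Q111 tumour 1. Kif15 had the largest difference of the kinesins, a log2 fold change of 0.56 (SE 0.23, 1.47-fold; limma unadjusted p = 0.0378, adjusted p = 0.621; exact permutation p = 0.0857).

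Kif23, Kif20a, Kif20b and Kif4 act late in mitosis. Kif23, the motor of the centralspindlin complex that marks the cleavage plane, gave 8.63, 8.80, 9.49 and 9.21 in HdhQ111/Q111 tumours, against 8.65, 8.55, 8.74 and 8.12 in HdhQ7/Q7 tumours (log2 fold change 0.51, SE 0.21, limma adjusted p = 0.619). Kif20a, which helps bring the chromosomal passenger complex to the central spindle, gave 9.33, 9.45, 10.06 and 9.83 in HdhQ111/Q111 tumours, against 9.35, 9.29, 9.39 and 8.88 in HdhQ7/Q7 tumours (0.44, SE 0.18, adjusted p = 0.621). For both genes only HdhQ111/Q111 tumours 2, 3 and 4 exceeded every HdhQ7/Q7 tumour. Kif20b, a motor needed for the completion of cytokinesis, gave 7.63, 7.59, 8.32 and 8.09 in HdhQ111/Q111 tumours, against 7.58, 7.57, 7.55 and 7.08 in HdhQ7/Q7 tumours. The groups did not overlap, but HdhQ111/Q111 tumours 1 and 2 lay just above HdhQ7/Q7 tumours 1 to 3 (log2 fold change 0.46, SE 0.19, limma adjusted p = 0.622; exact permutation p = 0.0286). Kif4, a chromosome-bound motor that works with Prc1 at the spindle midzone, gave 7.86, 7.96, 8.79 and 8.49 in HdhQ111/Q111 tumours, against 7.96, 7.86, 7.97 and 7.39 in HdhQ7/Q7 tumours. Its difference of 0.48 was similar in size, with an unadjusted limma p of 0.0651.

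**Figure D3:**
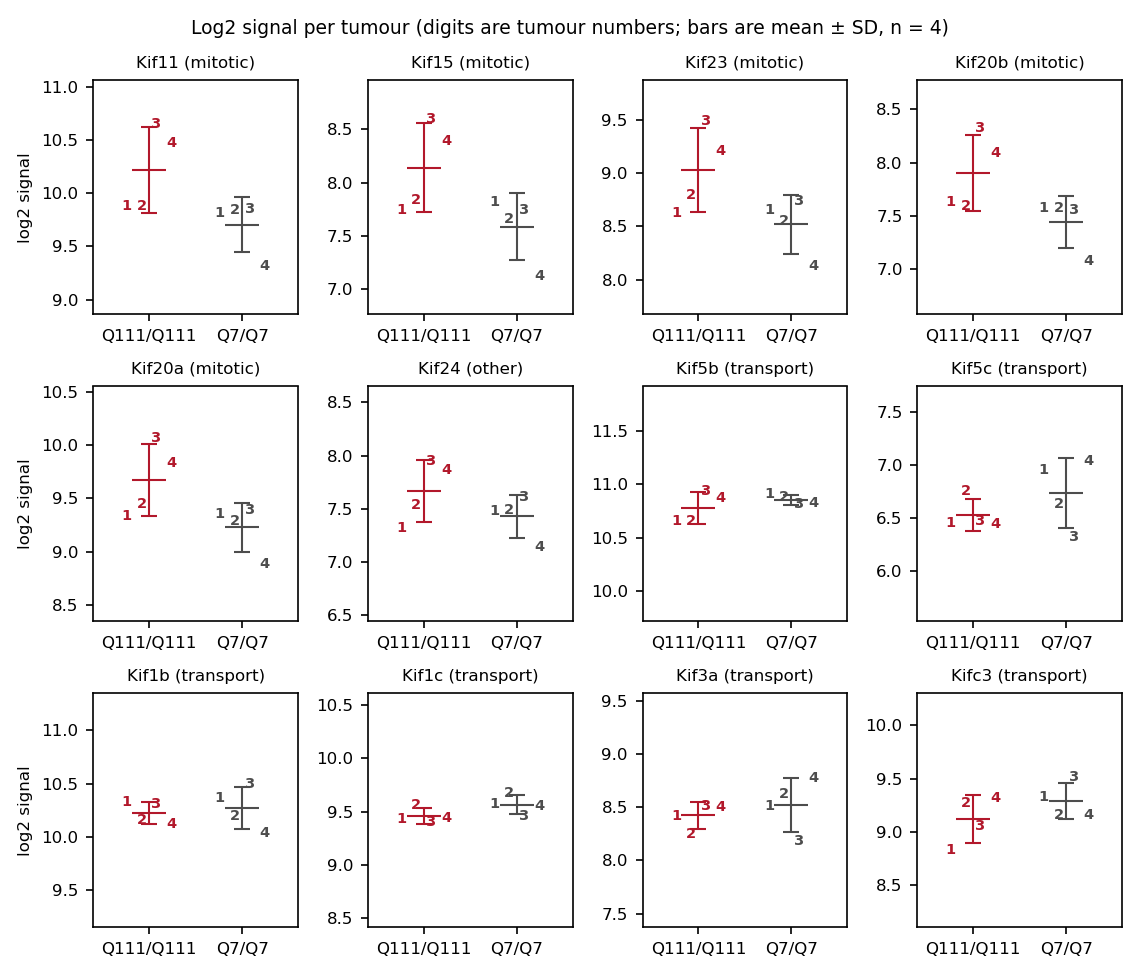
Log2 signal of 12 kinesin genes in each tumour. Digits are tumour numbers, HdhQ111/Q111 at the left and HdhQ7/Q7 at the right of each panel, bars are the mean ± SD (n = 4), and all panels span the same number of log2 units. In Kif11, Kif15, Kif23, Kif20b and Kif20a the digits 3 and 4 of HdhQ111/Q111 lie at the top and the 4 of HdhQ7/Q7 at the bottom, while the transport kinesins show no such split.

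The remaining mitotic kinesins differed less. Kif22, a chromosome-bound motor that pushes chromosome arms outwards, averaged 8.55 ± 0.39 in HdhQ111/Q111 tumours and 8.14 ± 0.22 in HdhQ7/Q7 tumours (SD, n = 4 each). Kif2c, which takes apart microtubule ends at centromeres, averaged 8.96 ± 0.44 in HdhQ111/Q111 tumours and 8.64 ± 0.28 in HdhQ7/Q7 tumours. Kif18a, which damps chromosome movements at the metaphase plate, averaged 7.66 ± 0.40 in HdhQ111/Q111 tumours and 7.38 ± 0.09 in HdhQ7/Q7 tumours. The log2 fold changes were 0.41 for Kif22, 0.32 for Kif2c and 0.27 for Kif18a, and their limma adjusted p-values lay within the range given above for all kinesins. Kifc5b, a minus-end directed kinesin-14 and a close copy of Kifc1 whose transcripts its probes may also bind, had the smallest difference of the mitotic kinesins, 0.14. A probe set for Kif18b was no member because it carries 2 gene identifiers. It gave 8.38, 8.71, 9.13 and 9.29 in HdhQ111/Q111 tumours, against 8.64, 8.60, 8.48 and 8.19 in HdhQ7/Q7 tumours, so its 2 highest tumours were also HdhQ111/Q111 tumours 3 and 4. Kif14, Kifc1 and Kif2b were not analysed here.

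The mitotic differences rested on 3 of the tumours. HdhQ111/Q111 tumour 3 had the highest signal for 10 of 10 mitotic kinesins, HdhQ111/Q111 tumours 3 and 4 were both above the other 6 tumours for 9 of 10, and HdhQ7/Q7 tumour 4 was the lowest for 8 of 10. The mean of the 10 genes, centred over the 8 tumours, was -0.13, -0.08, 0.62 and 0.41 in HdhQ111/Q111 tumours 1 to 4, against -0.06, -0.17, -0.08 and -0.51 in HdhQ7/Q7 tumours 1 to 4. HdhQ111/Q111 tumours 1 and 2 therefore lay among HdhQ7/Q7 tumours 1 to 3. Without HdhQ111/Q111 tumours 3 and 4, left out together after the values had been seen, the median log2 fold change of mitotic kinesins was 0.14, and without HdhQ7/Q7 tumour 4 as well it was 0.04. The count of 5 kinesins higher at an unadjusted p under 0.05 became 0 when HdhQ7/Q7 tumour 4, HdhQ111/Q111 tumour 3 or HdhQ111/Q111 tumour 4 was left out. Of all probe sets, 5.32%, 3.71% and 4.82% were then higher. The count became 8 when HdhQ111/Q111 tumour 1 or 2 was left out, beside 5.57% and 6.74% of all probe sets. It was also 0 with the methods' t-test (4.48% of all probe sets) and with array weights (5.35%). Under quantile normalization (3.65%) or centring of the arrays (2.71%) it was 2, with 0 kinesins free of overlap. In whole tumours, fewer cells of a type and less RNA per cell cannot be told apart.

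**Figure D4:**
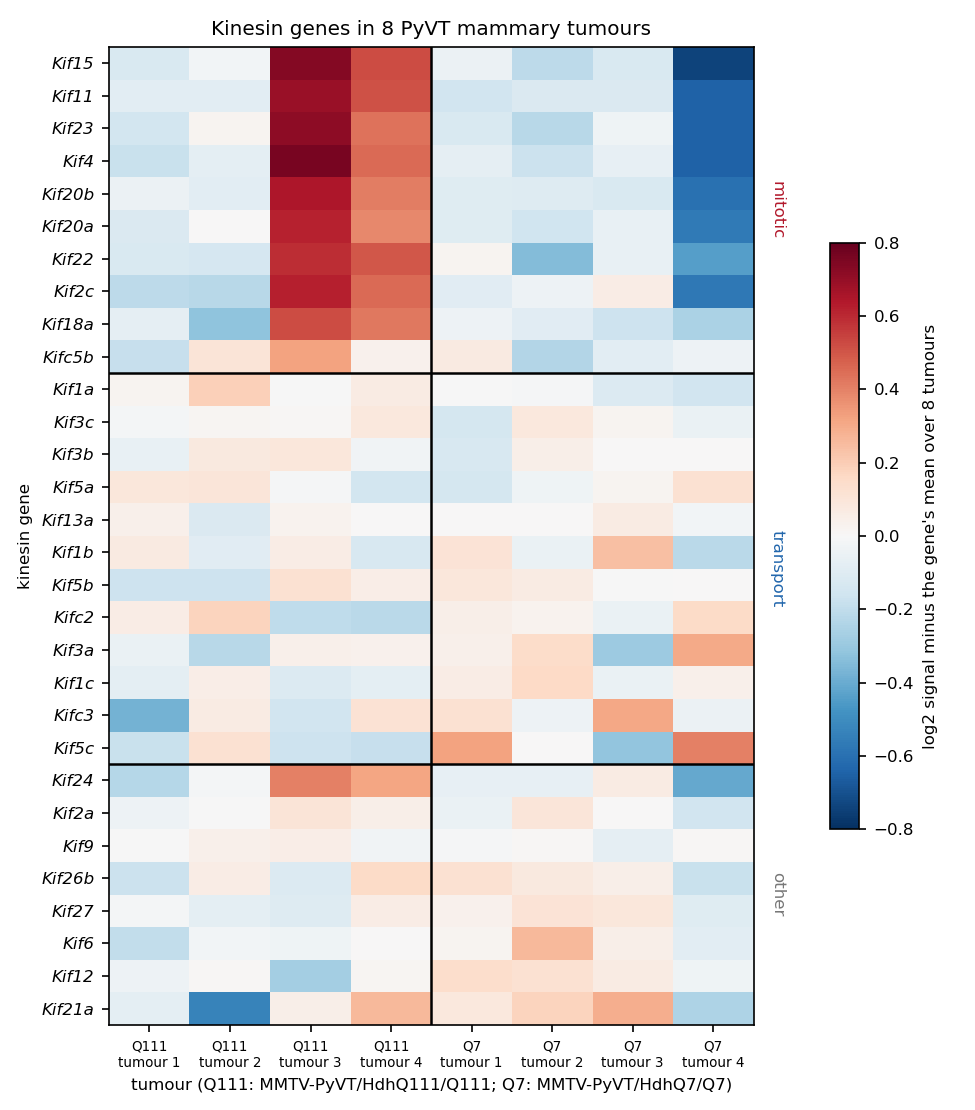
Log2 signal of the 30 kinesin genes in each tumour, minus the mean of the gene over the 8 tumours. Rows are genes grouped by role, columns are HdhQ111/Q111 tumours 1 to 4 and HdhQ7/Q7 tumours 1 to 4, red is above and blue below the mean. Red cells fill the columns of HdhQ111/Q111 tumours 3 and 4 in the mitotic block and blue cells that of HdhQ7/Q7 tumour 4, while the transport block has no column of one colour.

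Transport kinesins varied little. The range over the 8 tumours had a median of 1.22 log2 units for mitotic, 0.32 for transport and 0.37 for other kinesins, and of 0.48 over all probe sets. Centred means of the 12 transport kinesins stayed between -0.05 and 0.04 in every tumour. HdhQ111/Q111 tumour 3 had the highest signal for 2 of 12 and HdhQ7/Q7 tumour 4 the lowest for 2 of 12.

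Kinesin-1, the motor of vesicles that carry huntingtin, has the heavy chains Kif5a, Kif5b and Kif5c. Kif5b, the widely expressed chain, gave 10.66, 10.65, 10.94 and 10.87 in HdhQ111/Q111 tumours, against 10.91, 10.88, 10.81 and 10.82 in HdhQ7/Q7 tumours. The groups overlapped, with HdhQ111/Q111 tumours 1 and 2 lowest (log2 fold change -0.08, 95% confidence interval -0.27 to 0.12). Kif5c, a mainly neuronal chain, gave 6.46, 6.76, 6.47 and 6.45 in HdhQ111/Q111 tumours, against 6.95, 6.64, 6.32 and 7.04 in HdhQ7/Q7 tumours. It had the largest difference of the transport kinesins, -0.20 (interval -0.57 to 0.16), and HdhQ7/Q7 tumour 3 was the lowest of all 8. Kif5a, also mainly neuronal, gave 6.58, 6.58, 6.48 and 6.34 in HdhQ111/Q111 tumours, against 6.35, 6.46, 6.51 and 6.61 in HdhQ7/Q7 tumours, a difference of 0.01 (interval -0.18 to 0.21) that turned to -0.02 under quantile normalization and -0.05 under centring. Neuronal markers, 8 of 9 measured, had a mean signal of 6.05 to 6.12 in HdhQ111/Q111 tumours and 6.10 to 6.20 in HdhQ7/Q7 tumours.

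Kinesin-3 motors move vesicles and mitochondria. Kif1a, which carries synaptic and dense core vesicles in neurons, gave 6.35, 6.51, 6.32 and 6.39 in HdhQ111/Q111 tumours, against 6.32, 6.32, 6.22 and 6.17 in HdhQ7/Q7 tumours. HdhQ111/Q111 tumour 2 was the highest, and the difference was 0.14 (interval -0.03 to 0.30). Kif1b, a carrier of mitochondria and vesicles, gave 10.32, 10.16, 10.31 and 10.12 in HdhQ111/Q111 tumours, against 10.36, 10.20, 10.49 and 10.04 in HdhQ7/Q7 tumours (-0.04, interval -0.29 to 0.20). Kif1c, a widely expressed vesicle motor, gave 9.44, 9.56, 9.40 and 9.44 in HdhQ111/Q111 tumours, against 9.57, 9.68, 9.46 and 9.56 in HdhQ7/Q7 tumours. The groups overlapped (-0.11, interval -0.27 to 0.06), and a second Kif1c probe set ran the other way with 0.13, so that the mean of both was 0.01. Kif13a, which moves recycling endosomes, differed by -0.02.

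Kinesin-2 motors carry cargo into cilia and along the cytoplasm. Kif3a gave 8.42, 8.25, 8.51 and 8.51 in HdhQ111/Q111 tumours, against 8.51, 8.62, 8.18 and 8.77 in HdhQ7/Q7 tumours, and its partner Kif3b gave 8.03, 8.17, 8.18 and 8.06 in HdhQ111/Q111 tumours, against 7.96, 8.13, 8.09 and 8.10 in HdhQ7/Q7 tumours. Both overlapped widely, with differences of -0.10 (interval -0.39 to 0.20) for Kif3a and 0.04 (interval -0.12 to 0.20) for Kif3b. Kifap3, the subunit that joins this pair to cargo, gave 8.42, 8.40, 8.66 and 8.54 in HdhQ111/Q111 tumours, against 8.27, 8.43, 8.39 and 8.56 in HdhQ7/Q7 tumours, a difference of 0.09. Kif3c, another kinesin-2 chain, differed by 0.04, and the values of both Kif3b and Kif3c turned negative under quantile normalization and centring (-0.026 and -0.030 for Kif3b, -0.025 and -0.024 for Kif3c). The minus-end directed Kifc3 and Kifc2 differed by -0.17 and -0.09. Kifc3 gave 8.83, 9.27, 9.05 and 9.32 in HdhQ111/Q111 tumours, against 9.33, 9.16, 9.52 and 9.16 in HdhQ7/Q7 tumours, and HdhQ111/Q111 tumour 1 was the lowest of them. A probe set that carries the symbols of both Kif17 and Sh2d5 was no member and differed by -0.01. Kif13b and Kif16b were not analysed here.

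Among the other kinesins Kif24 followed the mitotic pattern. Kif24, which takes apart microtubules at centrioles and restrains the growth of cilia, gave 7.32, 7.53, 7.95 and 7.86 in HdhQ111/Q111 tumours, against 7.48, 7.48, 7.61 and 7.14 in HdhQ7/Q7 tumours. HdhQ111/Q111 tumours 3 and 4 were the highest and HdhQ7/Q7 tumour 4 the lowest, and the difference was 0.24 (interval -0.13 to 0.60). Kif21a, which slows microtubule growth at the cell cortex, gave 9.21, 8.75, 9.33 and 9.55 in HdhQ111/Q111 tumours, against 9.37, 9.46, 9.58 and 9.04 in HdhQ7/Q7 tumours. HdhQ111/Q111 tumour 2 was the lowest (-0.15, interval -0.57 to 0.26). Kif12 gave 5.99, 6.04, 5.76 and 6.05 in HdhQ111/Q111 tumours, against 6.17, 6.15, 6.10 and 6.00 in HdhQ7/Q7 tumours, a difference of -0.14. Kif2a, a microtubule depolymerase of spindle poles and neurites, differed by 0.05, and Kif9, Kif6 and Kif27, found in motile cilia, by 0.03, -0.12 and -0.07. The small values of Kif2a and Kif9 turned to -0.01 and -0.04 under centring. Kif26b, which has no known motor activity, differed by -0.03. Multiciliated cell markers, 5 of 6 measured, had a mean signal of 5.10 to 5.14 in HdhQ111/Q111 tumours and 5.04 to 5.18 in HdhQ7/Q7 tumours.

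The genes that work with mitotic kinesins were high and low in the same tumours. Of 33 spindle and cytokinesis partners 29 were measured, all 29 had a higher mean in HdhQ111/Q111 tumours (56.4% of all probe sets), 9 had an unadjusted limma p under 0.05 (5.20% of all probe sets higher) and 0 an adjusted one, and the median log2 fold change was 0.39. Cenpe, a kinetochore motor of the kinesin-7 family whose symbol does not begin with Kif, gave 8.07, 8.14, 8.86 and 8.60 in HdhQ111/Q111 tumours, against 7.92, 7.99, 8.11 and 7.46 in HdhQ7/Q7 tumours. HdhQ111/Q111 tumours 2, 3 and 4 exceeded every HdhQ7/Q7 tumour (log2 fold change 0.55, limma adjusted p = 0.603). Cit, the kinase of the cytokinetic midbody, Bub1b, a spindle checkpoint kinase, and Ccnb2, a mitotic cyclin, differed by 0.36, 0.48 and 0.42. The centred mean of the 29 partners was -0.13, -0.09, 0.55 and 0.44 in HdhQ111/Q111 tumours 1 to 4, against -0.07, -0.14, -0.03 and -0.53 in HdhQ7/Q7 tumours 1 to 4.

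Proliferation markers showed a like pattern. Of 10 markers 9 were measured, all 9 with a higher mean in HdhQ111/Q111 tumours (56.4% of all probe sets) and 2 with an unadjusted limma p under 0.05 (5.20% of all probe sets higher), with a median log2 fold change of 0.38. Mki67, a nuclear protein of cycling cells, gave 8.35, 8.13, 9.01 and 8.76 in HdhQ111/Q111 tumours, against 8.18, 8.37, 8.15 and 7.54 in HdhQ7/Q7 tumours (0.50). HdhQ111/Q111 tumours 1 and 2 lay within the HdhQ7/Q7 range. Top2a, which untangles DNA, Ccna2, the cyclin of S and G2 phases, and Mcm6, a subunit of the replicative helicase, differed by 0.40, 0.48 and 0.35. Of 14 factors that regulate genes of the G2 and M phases 11 were measured, 10 with a higher mean in HdhQ111/Q111 tumours, and their median was 0.13. Nfyb, a subunit of the CCAAT-binding factor NF-Y, was the 1 of 11 with an unadjusted p under 0.05, a count that does not set the factors apart from the 5.20% of all probe sets, with 8.49, 8.53, 8.69 and 8.61 in HdhQ111/Q111 tumours, against 8.12, 8.38, 8.43 and 8.37 in HdhQ7/Q7 tumours (0.26, limma adjusted p = 0.589). Foxm1 and Pcna were not analysed here.

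**Figure D5:**
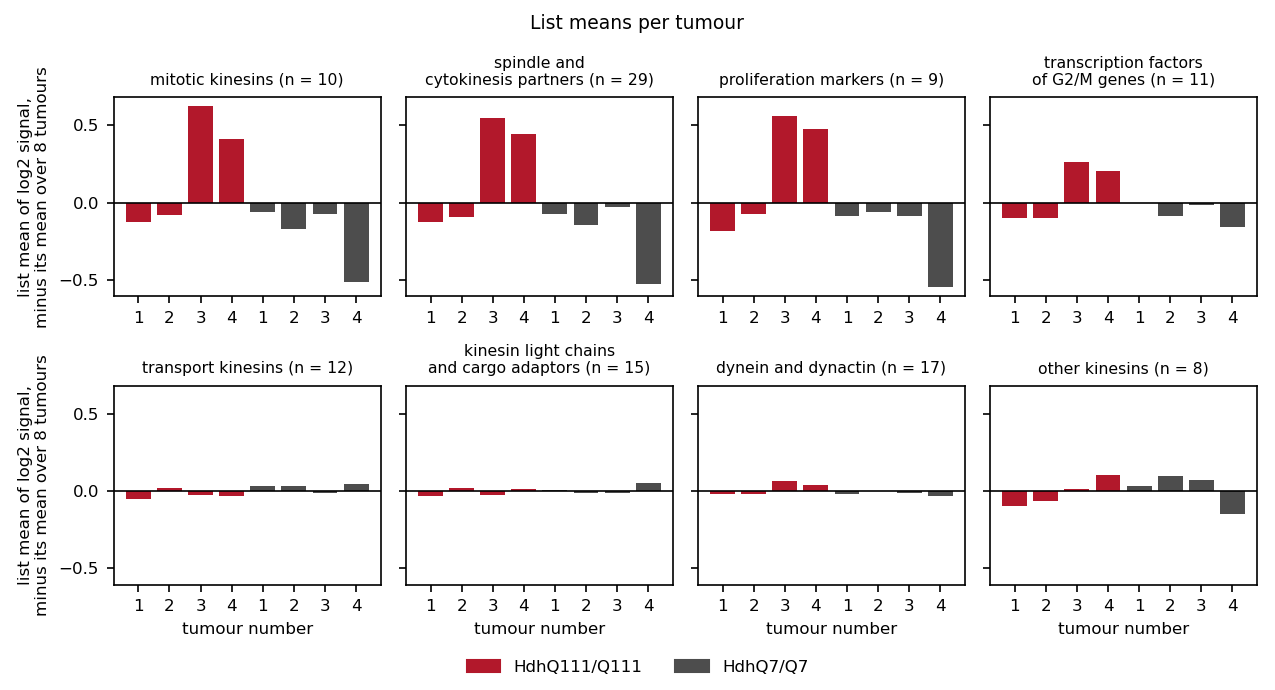
Mean log2 signal of gene lists in each tumour, minus the list's mean over the 8 tumours. Bars start at 0 and stand for HdhQ111/Q111 tumours 1 to 4 (red) and HdhQ7/Q7 tumours 1 to 4 (grey), with the number of measured genes above each panel. Mitotic kinesins, spindle partners and proliferation markers reach 0.62, 0.55 and 0.56 in HdhQ111/Q111 tumour 3 and -0.51, -0.53 and -0.55 in HdhQ7/Q7 tumour 4, while transport kinesins stay between -0.05 and 0.04.

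Partners of the transport kinesins differed little. Kinesin light chains and cargo adaptors, 15 of 20 measured, had 8 higher and 7 lower means and a median log2 fold change of 0.01, and dynein and dynactin genes, 17 of 22 measured, had 11 higher and 6 lower and a median of 0.04. The centred mean of the dynein and dynactin genes was highest in HdhQ111/Q111 tumours 3 and 4 and lowest in HdhQ7/Q7 tumour 4, at 0.064, 0.039 and -0.035. The centred mean over all probe sets was 0.062, 0.031 and 0.003 in these tumours, so that the high values are near those of the whole arrays. The spread was smaller than that of the mitotic kinesins, and the adaptors showed no such order. Both medians turned with scaling or came near 0, at -0.04 and 0.01 under quantile normalization and -0.06 and -0.02 under centring. Hap1, the huntingtin-associated protein that links vesicles to kinesin-1 and dynactin, was the 1 of 15 adaptors with an unadjusted limma p under 0.05, against 2.68% of all probe sets lower and 5.20% higher, so that this count is near the background. It gave 8.13, 8.40, 8.47 and 8.25 in HdhQ111/Q111 tumours, against 8.82, 8.47, 8.41 and 8.83 in HdhQ7/Q7 tumours, and HdhQ7/Q7 tumours 1 and 4 stood above the rest (-0.32, SE 0.13, adjusted p = 0.616). Rhot2, a mitochondrial receptor for kinesin adaptors, gave 9.76, 9.75, 9.70 and 9.76 in HdhQ111/Q111 tumours, against 9.57, 9.67, 9.65 and 9.68 in HdhQ7/Q7 tumours. Its groups did not overlap, yet the difference was only 0.10. The light chains Klc1 and Klc3 differed by 0.12 and -0.13. Dynlrb1, a dynein light chain, was the 1 of 17 dynein and dynactin genes with an unadjusted p under 0.05, near the 5.20% of all probe sets that were higher, with 12.18, 12.12, 12.22 and 12.12 in HdhQ111/Q111 tumours, against 12.05, 11.89, 11.95 and 12.07 in HdhQ7/Q7 tumours (0.17, adjusted p = 0.617).

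Markers of other cells also differed between the tumours, and their part in the kinesin values was not tested. Skeletal muscle markers, 4 of 5 measured, were high in the same HdhQ111/Q111 tumours as the mitotic kinesins: their mean signal was 6.48, 6.58, 9.52 and 9.54 in HdhQ111/Q111 tumours 1 to 4, against 7.64, 8.04, 6.75 and 7.42 in HdhQ7/Q7 tumours 1 to 4. In HdhQ7/Q7 tumour 4, the lowest for most mitotic kinesins, they were not the lowest. Fibroblast markers, 6 of 6 measured, had a mean of 9.51 to 9.75 in HdhQ111/Q111 tumours and 8.61 to 9.19 in HdhQ7/Q7 tumours without overlap, and HdhQ111/Q111 tumours 1 and 2, which were not high in mitotic kinesins, had 9.71 and 9.53. Macrophage markers, 5 of 5 measured, had a mean of 9.09 to 9.16 in HdhQ111/Q111 tumours and 8.86 to 8.90 in HdhQ7/Q7 tumours. Adipocyte markers, 5 of 5 measured, had a mean of 6.38 to 9.81 in HdhQ111/Q111 tumours, highest in tumour 1, and 6.14 to 6.99 in HdhQ7/Q7 tumours. T and B cell markers, 6 of 7 measured, had a mean of 5.94 to 6.11 in HdhQ111/Q111 tumours and 6.07 to 6.39 in HdhQ7/Q7 tumours, highest in HdhQ7/Q7 tumour 4.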

How the data were processed

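The deposited table holds log2 signals for 23332 probe sets on 8 arrays, 1 per tumour. The labels name the core probe set definitions of the array, and the normalization of the deposited values is not given in the sources. Quantile normalization and background correction are stated for the study's own analysis of genes. Values were used as deposited for all 8 arrays. The platform annotation gave 1 symbol for 14996 probe sets, several for 1019 and none for 7317. Groups came from the sample titles. The genotype comparison used limma 3.58.1 under R 4.3.3 (lmFit and eBayes, two-sided) over all probe sets, with Benjamini-Hochberg adjustment over all of them, and single genes also with an exact permutation test over all 70 labellings. The fit was tested on simulated data. Values were given per tumour for Htt, for kinesins with an unadjusted p under 0.05 or without overlap, and for the 3 largest differences of each role. The same was done for Kif5 and Kif1 genes, Kif3a, Kif3b and Kifap3. From each other list up to 4 members with the smallest p were picked, with Mki67 and Top2a. Of these, some were given per tumour, others only as a difference or not at all, and cell type markers mostly as list means. The members and lists were chosen with earlier results of these data known. Kif4 and Kif18b were added after their values were seen. Promoters were RefSeq windows of 250 bases before and 50 from the start. The number of arrays limits the precision. Alternatives were the methods' t-test, a trended robust fit, array weights, quantile normalization, centring, leaving out the dimmest 40% of probe sets, the mean of a gene's probe sets, other list members, a replicate block and leaving out each tumour. Plots used Python 3.11.15 and matplotlib 3.10.9.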

Additional observations from a re-analysis of the deposited data

Results flagged for a closer look

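In 10 of 186 gene and genotype groups of 4 tumours, 1 tumour stood far from the other 3, by a gap that chance gives in about 1 in 20 groups. All 10 are listed here, and their number is close to that rate. Among the kinesins, HdhQ7/Q7 tumour 4 had 9.32 for Kif11, where the other HdhQ7/Q7 tumours had 9.81 to 9.85, and 7.08 for Kif20b, where they had 7.55 to 7.58. HdhQ111/Q111 tumour 2 had 6.76 for Kif5c, above 6.45 to 6.47 in the other HdhQ111/Q111 tumours. HdhQ7/Q7 tumour 4 was also apart for the helicase subunit Mcm4 (8.84), the neurofilament Nefm (6.30) and the ciliary gene Rsph1 (4.95), below the other HdhQ7/Q7 tumours in each case. The other values were 9.70 for Rhot2 in HdhQ111/Q111 tumour 3, 10.7 for Rbbp4 in HdhQ111/Q111 tumour 1, 7.09 for Kdr in HdhQ7/Q7 tumour 2 and 8.26 for Klc4 in HdhQ7/Q7 tumour 3, each the lowest of its group. All values are log2 signals.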

How the results depend on the processing

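The 5 kinesins higher at an unadjusted p under 0.05 became 0 with the methods' t-test (4.48% of all probe sets higher) and with array weights (5.35%). They became 2 under quantile normalization (3.65%) and under centring (2.71%), and 0 without HdhQ111/Q111 tumours 3 and 4 (3.54%). The 2 kinesins without overlap became 0 under quantile normalization (4.70% of all probe sets) and under centring (5.58%). They became 4 without HdhQ111/Q111 tumours 3 and 4. Fewer tumours there left 15.6% of all probe sets without overlap, against 4.43% with all 8, so that the 4 are not above the background. The transport median of -0.06 became -0.091 under quantile normalization and -0.13 under centring, and that of the other kinesins became 0.054 without the dimmest 40% of probe sets, where 22 kinesins were left. The mitotic median of 0.45 became 0.14 without HdhQ111/Q111 tumours 3 and 4 and 0.041 without HdhQ7/Q7 tumour 4 as well, and the difference of mitotic and transport medians became 0.18 and 0.085. Both settings were chosen after the values were seen. The cause was not tested. When each tumour was left out in turn, the count of kinesins at the study's thresholds ranged from 0 to 4 (1.16% to 1.97% of all probe sets). At an unadjusted p under 0.05 it ranged from 0 to 8 higher (3.71% to 6.74%) and from 0 to 1 lower (1.96% to 3.07%). Without overlap it ranged from 2 to 5 (6.40% to 9.72% of all probe sets). The medians ranged from 0.31 to 0.55 (mitotic), from -0.067 to -0.027 (transport) and from -0.11 to -0.024 (other), and the difference from 0.36 to 0.61.

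Some values near 0 changed sign. Kif3c became -0.025 and -0.024, Kif3b -0.026 and -0.030, Kif5a -0.016 and -0.054 and Kif9 -0.00015 and -0.037 under quantile normalization and centring, Kif2a -0.014 under centring and Kif1c 0.011 as a mean of its probe sets. With a tumour left out, Kif1b ranged from -0.12 to 0.029, Kif13a from -0.040 to 0.013, Kif26b from -0.097 to 0.018 and Kif5a from -0.030 to 0.065. The direction and side of the threshold stayed in 294 of 304 single-gene values under the other settings and in 305 of 312 with a tumour left out. These counts say little about robustness. The t-test, the trended robust fit, the replicate block and leaving out dim probe sets cannot change a gene's log2 fold change. The threshold was an adjusted p under 0.05, which none of these genes met in the main fit (lowest limma adjusted p = 0.0700, Htt).

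No pairing by replicate number was seen in the values. Deviations of same-numbered tumours correlated at 0.03, -0.09, 0.02 and -0.19, and those of differently numbered tumours at -0.13 to 0.15. With so few tumours, these correlations do not decide whether the tumours were paired. With the replicate block the 5 kinesins higher at an unadjusted p under 0.05 became 1, beside 4.80% of all probe sets.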
